A study of Mus musculus with 18 samples.

Results

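Contacts made by Hoxd9 and Hoxd8, neighbouring genes in the middle of the mouse HoxD cluster, were followed in 18 chromosome conformation capture carbon copy (5C) libraries. In 5C, chromatin is crosslinked, cut with the restriction enzyme EcoRI and religated, and primers placed on chosen fragments detect which fragments were joined. The anchored contacts were all pairs of a forward-primer and a reverse-primer fragment, with midpoints at least 10 kb apart, in which one midpoint lay between the start of Hoxd9 and the end of the fragment that holds the end of Hoxd8 (mm9 chromosome 2). Position alone chose them, and no measured value entered the rule. The position itself was of known interest, since the study had placed a boundary between interaction domains at Hoxd9 and Hoxd10 from these limb libraries. In the primer design used for embryonic stem (ES) cells, 255 of 4251 pairs at least 10 kb apart were anchored here. In the wider design used for limb cells, 395 of 10068 were. By the same rule the Hoxd11 window had 128 pairs in ES cells and 198 in limb cells, and the window of Hoxd4 and Hoxd3 had 626 and 883.

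The ES design covered 133 fragments and 14 libraries in 7 groups. OS25 ES cells were undifferentiated (UD, 2 libraries) or had been differentiated for 3 days, of which 2 days were with retinoic acid (D3, 2 libraries). The treatment label of the UD libraries repeats the differentiation text of D3, and their titles place them as undifferentiated. WTF18 ES cells were the wild type (2 libraries), set against EED KO cells (Eed-/-, 2 libraries) and Ring1B KO cells (Ring1B-/-, 3 libraries). The Ring1BGWT group (2 libraries) was Ring1B KO cells to which, by the study's account, wild-type Ring1B had been returned, and Ring1BG53 (1 library) was Ring1B KO cells given a Ring1B that cannot ubiquitinate histones. By their labels ES cells were kept with LIF on feeder fibroblasts from E12.5 embryos, LIF was withdrawn for differentiation, and feeders were removed before fixation by letting them reattach to plastic. The study's methods do not name feeders for OS25 cells. The methods name more than one Eed mutant line, and which line gave which library is not given. The limb design covered 203 fragments and 4 libraries: the mesenchymal lines A2 (anterior, 2 libraries) and P2 (posterior, 2 libraries), derived from distal forelimb buds of E10.5 Immortomouse embryos and grown at 33°C with γ-interferon. Each limb line stands for 1 position in the bud, so position and line cannot be told apart. No expression was measured in these libraries, so the cell types could not be set against marker genes.

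Hoxd genes encode homeodomain transcription factors needed for the axial skeleton, the limbs and the digits, and they are switched on in an order that follows their position along the chromosome. Enhancers for the digits lie in the gene desert 5′ of the cluster, beyond Evx2 and Lnp, and enhancers for the early, proximal limb lie in the desert 3′ of Hoxd1 and Mtx2. Hoxd9 and Hoxd8 sit between these regulatory landscapes. In ES cells the cluster is silent and carries histone H3 lysine 27 methylation, deposited by Polycomb repressive complex 2, of which Eed is a core subunit. Ring1B is the ubiquitin ligase of Polycomb repressive complex 1, and retinoic acid activates the 3′ part of the cluster first. In what follows, 5′ is the side of Hoxd10 to Lnp and 3′ is the side of Hoxd4 to Mtx2.

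The anchor consisted of 4 adjoining EcoRI fragments. Fragment mHoxD_78 (chr2:74537329-74538484, forward primer) held the part of the last coding exon of Hoxd9 beyond its EcoRI site and the 3′ end of the gene. Fragment mHoxD_79 (chr2:74538485-74542114, reverse primer) lay between the genes, with an exon of the antisense transcript 1700109F18Rik. Fragment mHoxD_80 (chr2:74542115-74544638, forward) held the start of Hoxd8 up to the EcoRI site in its coding sequence, and mHoxD_81 (chr2:74544639-74548285, reverse) the rest of the gene and the sequence downstream. The start of Hoxd9 lay on a fragment without a primer, so its promoter was not read. Forward fragments were joined only to reverse ones, so each partner was read by 2 of the 4 anchor fragments. The junctions that 5C reads form at EcoRI sites. Those bounding the anchor are shown as 30 bases of the plus strand of mm9, with the EcoRI site in capitals, because they delimit what counts as a contact of Hoxd9 or of Hoxd8.
start of mHoxD_78, chr2:74537314-74537343: gagctggagaagGAATTCctcttcaacatg
mHoxD_78 to mHoxD_79, chr2:74538470-74538499: cagggccacaatGAATTCccagccttaggc
mHoxD_79 to mHoxD_80, chr2:74542100-74542129: aagcggactgagGAATTCaatttctcctgc
mHoxD_80 to mHoxD_81, chr2:74544624-74544653: gagttggaaaagGAATTCctttttaaccct
end of mHoxD_81, chr2:74548271-74548300: ttcactgcataaGAATTCacatctagtgtc
The first of these lies in a coding exon of Hoxd9 and the fourth in a coding exon of Hoxd8, and they were identical at 23 of 30 bases. That count includes the EcoRI site, which both hold by construction. Over a longer stretch, 42 of 60 bases were identical. Both genes are thus cut within a coding exon, in sequence that is alike around the site.

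Partner fragments to which the results below return end at the following sites, chosen because they bound the partners in the most frequent anchored contacts, or in the far 3′ contact described last among the single pairs.
end of mHoxD_67, Evx2 side, chr2:74498297-74498326: atttaacaaataGAATTCtgagttctttct
end of mHoxD_75, in Hoxd11, chr2:74524303-74524332: ttattttgtttaGAATTCtgggcattggtt
end of mHoxD_82, in 1700109F18Rik and Hoxd3, chr2:74552555-74552584: tatattttgccaGAATTCtgttctctgagt
end of mHoxD_92, between Hoxd3 and Hoxd1, chr2:74591745-74591774: tggagtaaacttGAATTCcctttaaagtta
end of mHoxD_179, 3′ gene desert, chr2:74894238-74894267: acgccatgatccGAATTCttccatcaccac

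Values are contact frequencies in reads per 1000 reads of a library, averaged over the pairs that join the anchor to a named region. Libraries held 216419 to 1708047 reads in ES cells and 478818 to 2096681 in limb cells. Anchored pairs took 7.04 to 12.3% of the reads of pairs at least 10 kb apart in ES libraries and 6.44 to 9.62% in limb libraries. Of the 255 ES pairs, 38 to 133 had no read in a given library, against 4 to 50 of 395 in limb cells. A count of 3 reads was worth 0.00176 to 0.0139 per 1000 in ES libraries and 0.00143 to 0.00627 in limb libraries. Between replicates, log2 frequencies of anchored pairs correlated at r = 0.35 to 0.63 within ES groups, 0.76 in A2 and 0.85 in P2. Single pairs were therefore noisy (median SD within groups 1.46 log2 units in ES cells, 0.56 in limb cells), whereas averages over regions were steadier (0.38 and 0.18).

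Near the anchor, Hoxd9 and Hoxd8 were contacted most by the cluster itself, and far from it they were contacted more by the 3′ side in every library. Between 160 and 300 kb, 55 pairs joined the anchor to the 5′ side (Lnp and the GCR, the global control region that holds digit enhancers) and 61 to the 3′ side (Mtx2 and the desert beyond it), at mean distances of 224.7 and 224.1 kb. In A2, 5′ partners had 0.0636 and 0.0622 reads per 1000 per pair and 3′ partners 0.205 and 0.156. In P2 these values were 0.0564 and 0.0742 against 0.214 and 0.230. In D3 cells they were 0.0554 and 0.0571 against 0.249 and 0.198, and in UD cells 0.0720 and 0.0516 against 0.139 and 0.111. The 3′ mean was above the 5′ mean in 14 of 14 ES libraries, by 1.64- to 4.5-fold, and in 4 of 4 limb libraries, by 2.51- to 3.8-fold. Across the ES libraries the 5′ means ran from 0.0357 to 0.106 and the 3′ means from 0.0887 to 0.249, so the ranges met only at their ends.

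**Figure D1:**
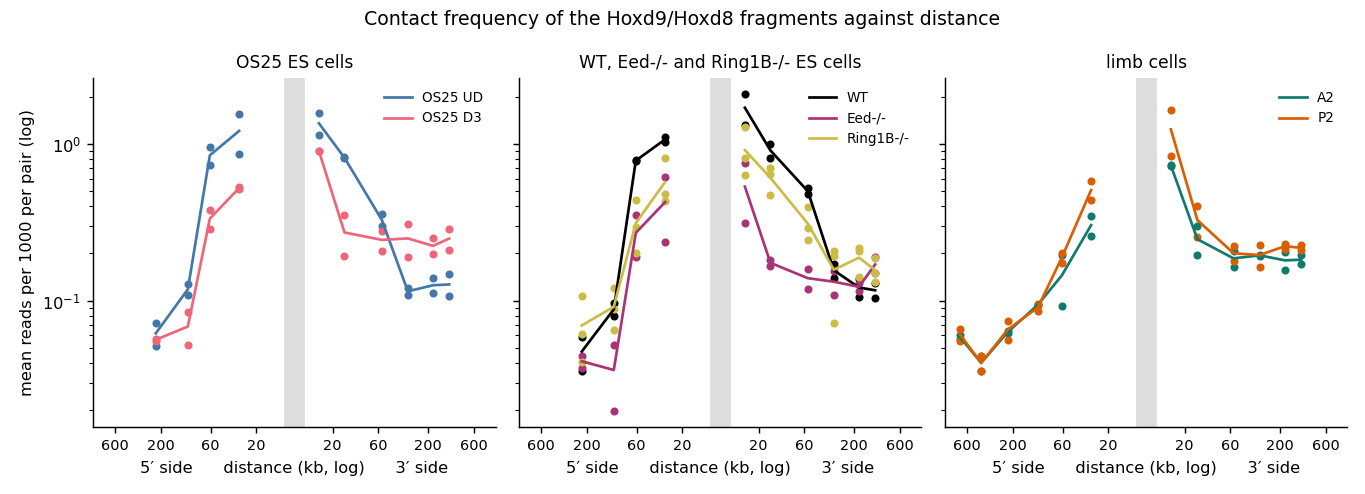
Mean contact frequency (reads per 1000 per pair, log axis) of the Hoxd9 and Hoxd8 fragments against distance (kb, log axis) on the 5′ side (left of the grey band) and 3′ side (right), in OS25, wild-type, Eed-/- and Ring1B-/- ES cells and in limb cells. Points are libraries and lines are group means; beyond 160 kb the 3′ points lie above the 5′ points at the same distance in every group drawn.

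The lean changed with distance. Between 80 and 160 kb the 3′ side was the more frequent in 11 of 14 ES libraries and in 4 of 4 limb libraries. Between 40 and 80 kb the 5′ side was the more frequent in 13 of 14 ES libraries, with log2 ratios of 5′ over 3′ from -0.27 to 1.42, but in none of the limb libraries (-0.82 to -0.03). Between 20 and 40 kb the 5′ side, here reaching from Hoxd11 past Hoxd13, was ahead in 11 of 14 ES libraries and in 4 of 4 limb libraries (0.22 to 0.79). An average over all distances therefore mixes opposite leans, and values at 80 kb and more (to 300 kb) are given apart. That limit is an edge of the distance classes and was chosen after these values were seen.

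**Figure D2:**
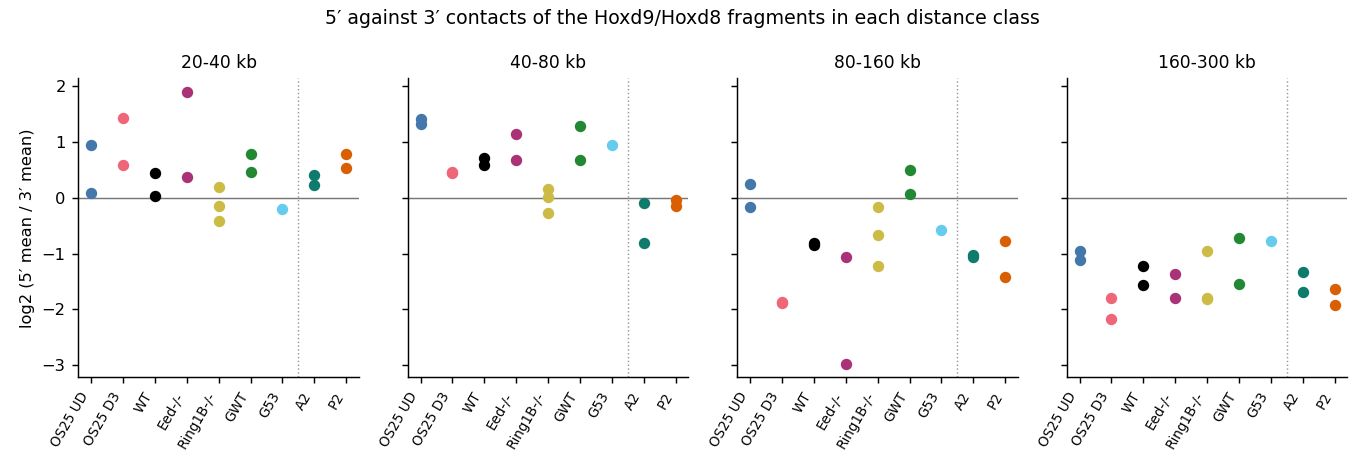
Log2 ratio of 5′ over 3′ contact frequency of the Hoxd9 and Hoxd8 fragments in matched distance classes (kb), per library, in ES and limb cells; 0 is an equal frequency on both sides. All 14 ES libraries and all 4 limb libraries lie below 0 at 160 to 300 kb.

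At 80 kb and more, the log2 ratio of the anchor was -1.36 and -1.19 in A2 and -1.35 and -1.53 in P2. Both lines thus leaned 3′ and their libraries overlapped. Against 0, the mean was -1.28 in A2 (SE 0.08, limma adjusted p = 0.00041), where 38.5% of all windows used as anchors were called lower, and -1.44 in P2 (SE 0.08, adjusted p = 0.00025), also with 38.5% called. D3 cells gave -2.02 and -1.84 (mean -1.92, SE 0.25, adjusted p = 5.5e-07; 60% of windows called). Eed-/- cells gave -1.21 and -2.38, which spread widely (mean -1.80, SE 0.25, adjusted p = 3.3e-06; 40% called). Ring1B-/- cells gave -0.82, -1.52 and -0.98 (mean -1.11, SE 0.21, adjusted p = 0.0002; 40% called). Wild-type cells gave -1.02 and -1.20 (mean -1.11, SE 0.25, adjusted p = 0.0023; 40% called), a call lost without replicate 2 (-1.01, adjusted p = 0.059) and when primers were scaled to equal means (-0.40, adjusted p = 0.16). The other groups did not pass the test: UD cells gave -0.35 and -0.64 (adjusted p = 0.16; 20% called), Ring1BGWT cells -0.73 and -0.11 (adjusted p = 0.55; 0% called), and the Ring1BG53 library -0.68 (adjusted p = 0.36; 10% called).

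Below 80 kb the ratio leaned the other way in some ES groups. It was above 0 in UD cells (0.94, SE 0.24, limma adjusted p = 0.00039; 40% of windows called higher), in D3 cells (0.73, SE 0.24, adjusted p = 0.013; 30%), in Eed-/- cells (1.02, SE 0.24, adjusted p = 0.00042; 20%) and in Ring1BGWT cells (0.80, SE 0.24, adjusted p = 0.0027; 30%). In limb cells it was -0.07 in A2 and 0.29 in P2, neither of which passed the test.

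A step in this lean lay between Hoxd11 and Hoxd9 in limb cells, but only far from the anchor. The study had already drawn a domain boundary at Hoxd9 and Hoxd10 from the same limb libraries, so the p-values below are not independent of it. At 80 kb and more, the group mean log2 ratio in A2 was 0.55 for Evx2, 0.15 for Hoxd13 and Hoxd12, 0.01 for Hoxd11, then -1.28 for Hoxd9 and Hoxd8, -1.57 for Hoxd4 and Hoxd3 and -1.04 for Hoxd1. In P2 the same series was 0.77, 0.59, -0.05, -1.44, -1.83 and -1.29. At these distances the anchor thus stood with the 3′ genes of the cluster and apart from its 5′ neighbours. Within libraries, Hoxd11 exceeded the anchor by 1.28 in A2 (limma adjusted p = 3.6e-05) and by 1.39 in P2 (adjusted p = 2.4e-05), both on the log2 ratio. Evx2, a homeobox gene at the 5′ end of the cluster, exceeded it by 1.83 (adjusted p = 1.9e-05) and 2.21 (adjusted p = 4.8e-06). The anchor differed from 3 of 5 cluster windows in A2 and from 4 of 5 in P2, among 80% and 86.7% of all window-to-window differences called, so differing from a neighbour was common in these libraries. In P2 the fourth difference was from Hoxd4 and Hoxd3, from which the anchor differed by 0.39 (adjusted p = 0.018). Below 80 kb the order of Hoxd11 and the anchor was reversed. Hoxd11 minus the anchor was then -1.09 in A2 (limma adjusted p = 0.0125) and -1.47 in P2 (adjusted p = 0.0047). Over all distance classes it was 0.10 in A2 and -0.04 in P2, and neither was called.

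**Figure D3:**
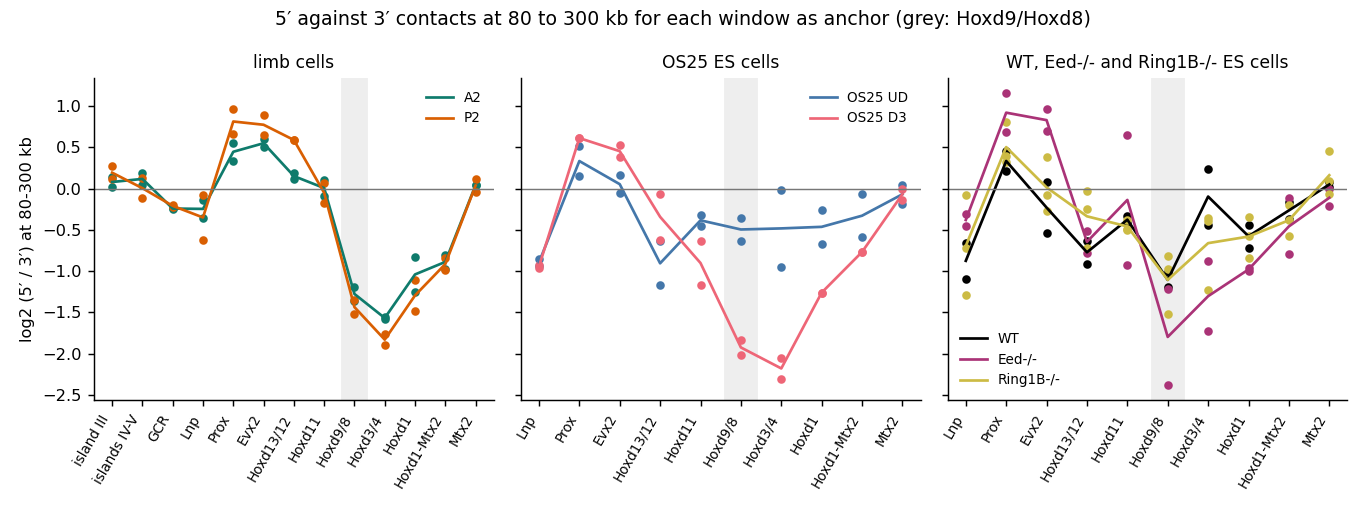
Log2 ratio of 5′ over 3′ contact frequency at 80 kb and more for successive windows along the locus, from 5′ to 3′; points are libraries and lines group means. In A2 and P2 the ratio is near 0 at Hoxd11 and near -1.3 to -1.4 at Hoxd9 and Hoxd8.

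In ES cells the same comparison was made within each group, and these differences were not tested between groups. In D3 cells the anchor lay below Evx2 by 2.38 (limma adjusted p = 4.3e-09), below Hoxd13 and Hoxd12 by 1.58 (adjusted p = 4.4e-05) and below Hoxd11 by 1.02 (adjusted p = 0.0076), 3 of 5 windows with 73.3% of all differences called. Without D3 replicate 1 the calls were lost for Hoxd11 (0.66, adjusted p = 0.29) and for Hoxd13 and Hoxd12 (1.21, adjusted p = 0.05), which left Evx2. In Eed-/- cells it lay below Evx2 by 2.63 (adjusted p = 2.6e-10), below Hoxd13 and Hoxd12 by 1.15 (adjusted p = 0.0027), below Hoxd11 by 1.66 (adjusted p = 2.3e-05) and below Hoxd1 by 0.82 (adjusted p = 0.031), 4 of 5 with 66.7% called. The calls against Hoxd13 and Hoxd12 (0.70, adjusted p = 0.23) and against Hoxd1 (-0.25 for the anchor minus Hoxd1, adjusted p = 0.64) were lost without Eed-/- replicate 2. With only the groups compared 0 of the 4 were called, with primers scaled 1 was, and the ratio of Hoxd11 itself was 0.65 and -0.92 in the Eed-/- libraries. In Ring1B-/- cells the anchor lay below Evx2 alone (1.12, adjusted p = 0.0022; 6.67% called). In UD, wild-type and Ring1BGWT cells, no difference from a cluster window was called for the anchor or for any other window (0%), and in Ring1BG53 cells none was for the anchor (6.67% called). A call in one group and none in another does not show that the groups differ. In each ES group of 2 libraries the SE was 0.35 for every difference, pooled over differences that share windows. These p-values may therefore be too small.

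Between groups, the lean of the anchor itself was also tested. At 80 kb and more the log2 ratio was lower in D3 than in UD cells by 1.43 (SE 0.36, limma adjusted p = 0.0029), with no overlap between libraries, and 30% of windows were called. With primers scaled to equal means the difference was -0.80 (adjusted p = 0.11) and no longer passed. Over all distance classes it was -0.82 (adjusted p = 0.0105; 30% called lower), and this call was lost without UD replicate 2 (adjusted p = 0.094) or D3 replicate 1 (adjusted p = 0.11). For Eed-/- against wild-type cells the difference at 80 kb and more was -0.69 (adjusted p = 0.21; 20% called). It passed with scaled primers (-1.02, adjusted p = 0.032) and without Eed-/- replicate 1 (-1.27, adjusted p = 0.0064). For Ring1BGWT against Ring1B-/- cells it was 0.68 at 80 kb and more (adjusted p = 0.13; 0% called) and 0.88 below 80 kb (adjusted p = 0.031; 20% called higher). P2 and A2 differed by -0.16 at 80 kb and more (adjusted p = 0.6; 0% called).

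Over all distance classes, the ratio against 0 was called in A2 (-0.67, limma adjusted p = 0.0031; 30.8% of windows called lower), P2 (-0.58, adjusted p = 0.0042; 30.8%), D3 (-0.60, adjusted p = 0.0123; 30%) and Ring1B-/- cells (-0.59, adjusted p = 0.0022; 50%). The A2 call was lost without either A2 library (adjusted p = 0.17 and 0.27) and the D3 call without either D3 library (adjusted p = 0.22 and 0.065). Between Ring1BGWT and Ring1B-/- cells this ratio differed by 0.78 (adjusted p = 0.0221; 20% called higher), a call lost without Ring1B-/- replicate 2 (0.65, adjusted p = 0.069) or 3 (0.78, adjusted p = 0.05) or Ring1BGWT replicate 2 (0.51, adjusted p = 0.18). The differences for Eed-/- against wild type (-0.06, adjusted p = 0.81; 60% called), Ring1B-/- against wild type (-0.26, adjusted p = 0.36; 30%) and P2 against A2 (0.10, adjusted p = 0.84; 0%) did not pass. Differences between windows ran in opposite directions in the 2 designs. Evx2 minus the anchor was -1.66 in UD, -1.07 in wild-type and -1.60 in Ring1BGWT cells, but 0.85 in A2 and 0.69 in P2. The anchor thus leaned further 5′ than Evx2 in those ES groups and further 3′ in limb cells. On this average the anchor lay apart from 4 of 5 cluster windows in UD cells (73.3% of differences called), 4 in wild-type cells (66.7%), 5 in Ring1BGWT (80%), 4 in Ring1BG53 (80%), 2 in Ring1B-/- (53.3%), 3 in A2 (40%), 1 in P2 (20%), and 0 in D3 and Eed-/- cells (0%). The A2 count was 0 without either A2 library, and so was the P2 count. With primers scaled the counts were 0 in UD, wild-type, Ring1B-/-, Ring1BGWT and Ring1BG53 cells, and with other distance classes in UD and Ring1BG53 cells.

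Contacts of Hoxd9 and Hoxd8 throughout the cluster were lower in Eed-/- than in wild-type cells, and no change in the flanks was called. Joined to the 5′ cluster (Evx2 to Hoxd11, 18 pairs), the anchor had 1.33 and 1.27 reads per 1000 per pair in wild-type cells and 0.325 and 0.572 in Eed-/- cells. Joined to the 3′ cluster (Hoxd4 to Hoxd1, 25 pairs), it had 0.919 and 1.18 in wild-type cells and 0.298 and 0.251 in Eed-/- cells. The libraries did not overlap on either side. In limma the 5′ cluster was lower by 1.54 log2 units (adjusted p = 0.00364) and the 3′ cluster by 1.85 (adjusted p = 0.000411). These were 2 of the 3 sums of the anchor called, the other being that over all partners, and 19.2% of the sums of all windows were called lower. The 3′ flank, from Hoxd1 to the desert beyond Mtx2, had 0.135 and 0.116 in wild-type and 0.119 and 0.142 in Eed-/- cells, and it differed by 0.05. The 5′ flank differed by -0.28, and neither flank passed the test. The Eed-/- libraries had more anchored pairs without a read, 133 and 131 of 255 against 105 and 114 in the wild type, at 1086406 and 906901 reads against 653441 and 692267.

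By region, the contacts of the anchor that fell in Eed-/- cells were those with Hoxd1, a retinoic acid responsive gene (log2 change -2.48, SE 0.37, limma adjusted p = 0.00091), with Hoxd13 and Hoxd12 (-1.88, SE 0.40, adjusted p = 0.00398), with Hoxd11 (-1.77, SE 0.45, adjusted p = 0.014), with Hoxd4 and Hoxd3 (-1.76, SE 0.33, adjusted p = 0.00398) and with Evx2 (-1.32, SE 0.41, adjusted p = 0.0452). For Hoxd1 the libraries had 0.486 and 0.499 in wild-type and 0.102 and 0.049 in Eed-/- cells. For Hoxd11 they had 2.02 and 2.09 against 0.542 and 0.635. For Evx2 they had 1.29 and 1.30 against 0.313 and 0.817, so the Eed-/- libraries were further apart there. One pair of that window, mHoxD_69 with mHoxD_79 at 38.1 kb, had 0.484 and 4.03 in Eed-/- cells, in which it was the most frequent anchored pair on average, against 1.63 and 1.91 in the wild type. These 5 were the cluster windows among 11 partner windows, and 16.9% of all window pairs of the locus were called lower. The calls for Hoxd1 and for Hoxd4 and Hoxd3 held when any 1 Eed-/- or wild-type library was left out. That for Evx2 was lost without Eed-/- replicate 1 (-0.65, adjusted p = 0.38) and without either wild-type library (-1.33 and -1.31, adjusted p = 0.13 and 0.17), and also without any of 7 libraries of other groups (adjusted p = 0.057 to 0.064). That for Hoxd11 was lost without Eed-/- replicate 1 (-1.66, adjusted p = 0.087) or either wild-type library (-1.80 and -1.75, adjusted p = 0.068 and 0.085), and that for Hoxd13 and Hoxd12 without wild-type replicate 1 (-1.66, adjusted p = 0.052). The 5′ cluster sum was lost without Eed-/- replicate 1 (-1.16, adjusted p = 0.075), and the sum over all partners (-0.89, adjusted p = 0.018) without that library (-0.76, adjusted p = 0.13) or either wild-type one (-0.91 and -0.87, adjusted p = 0.078 and 0.11). With primers scaled to equal means, which divides out a fall shared by all contacts of a primer within a library, no window was called and the 3′ cluster sum kept its call (-1.01, adjusted p = 0.013).

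**Figure D4:**
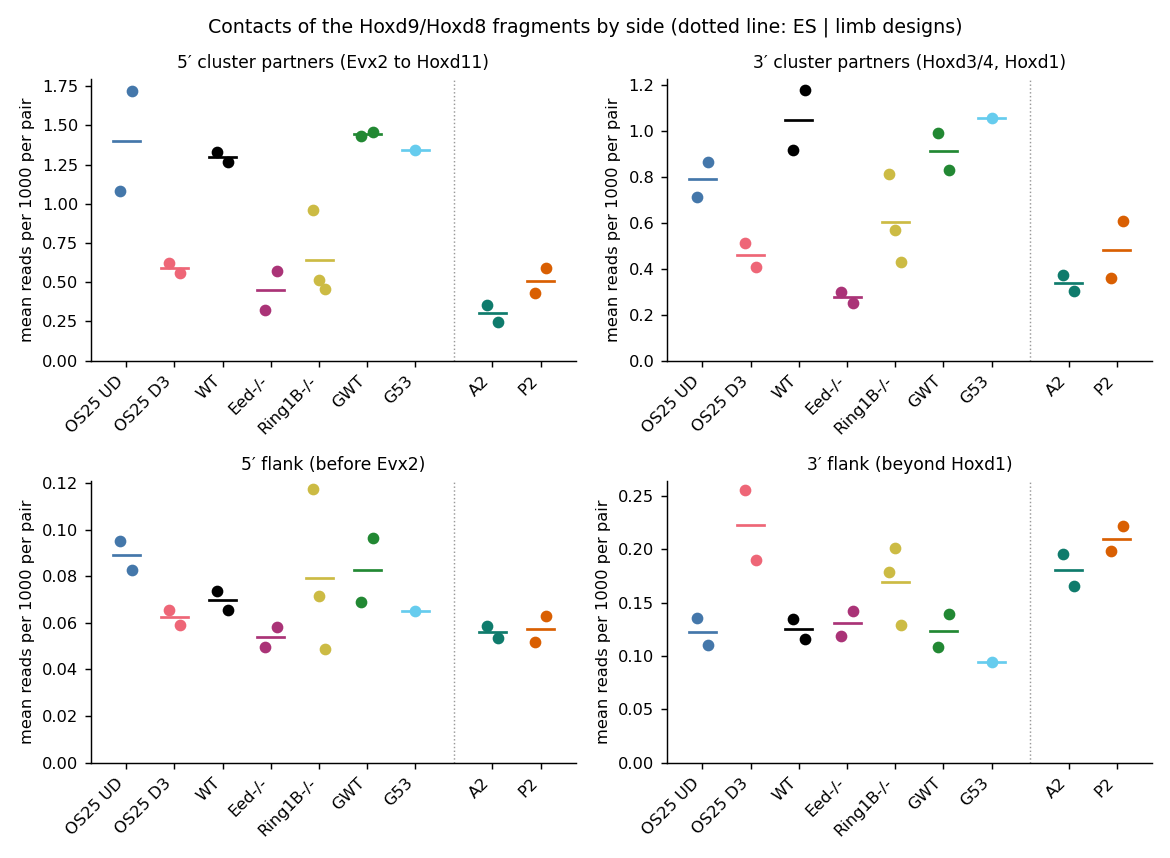
Mean contact frequency (reads per 1000 per pair, linear axes) of the Hoxd9 and Hoxd8 fragments with the 5′ cluster, 3′ cluster, 5′ flank and 3′ flank, by group (GWT and G53 are Ring1BGWT and Ring1BG53); points are libraries, short lines group means, and the dotted line parts the ES and limb designs. The Eed-/- libraries lie at 0.325 and 0.572 for the 5′ cluster, below both wild-type libraries at 1.33 and 1.27.

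Ring1B-/- cells had cluster contacts below those of the wild type, which did not pass the test. The 5′ cluster had 0.958, 0.512 and 0.458 reads per 1000 per pair in Ring1B-/- cells, all below both wild-type libraries. These values overlapped those of Eed-/- cells (0.325 and 0.572), and the mutants were not tested against each other. The 3′ cluster had 0.814, 0.568 and 0.432, also without overlap. In limma these were changes of -1.07 and -0.81 log2 units, both with adjusted p = 0.0828, and no sum or window of the locus was called (0%). In Ring1BGWT cells the 5′ cluster had 1.43 and 1.46 and the 3′ cluster 0.993 and 0.831, above all Ring1B-/- libraries. The rise over Ring1B-/- cells passed for the 5′ cluster (1.22, adjusted p = 0.0262), where 9.62% of all sums were called higher. That call was lost without Ring1B-/- replicate 2 (1.10, adjusted p = 0.16) or 3 (1.02, adjusted p = 0.14) and without Ring1BGWT replicate 1 (1.23, adjusted p = 0.12) or 2 (1.20, adjusted p = 0.18). Ring1BGWT replicate 1 was the shallowest library, at 216419 reads. No window was called (0%), with Evx2 at 1.35 and Hoxd13 and Hoxd12 at 1.30 (both adjusted p = 0.062). The single Ring1BG53 library had 1.34 in the 5′ cluster (95% exact interval 1.31 to 1.37) and 1.06 in the 3′ cluster (1.04 to 1.08), intervals that cover counting error only. It lay above all 3 Ring1B-/- libraries on both sides, and no sum or window was called against them (0%). Between UD and wild-type ES cells, no sum or window of the locus was called (0%).

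Upon differentiation the contacts of Hoxd9 and Hoxd8 with the cluster were lower and those with the 3′ flank higher in every library, without passing the adjusted test. The 5′ cluster had 1.08 and 1.72 reads per 1000 per pair in UD cells and 0.620 and 0.558 in D3 cells (log2 change -1.19, limma adjusted p = 0.0587). The 3′ cluster had 0.713 and 0.868 against 0.511 and 0.406 (-0.76, adjusted p = 0.106). The 3′ flank had 0.135 and 0.110 against 0.256 and 0.190 (0.76, adjusted p = 0.0812). No sum of the anchor was called, with 3.85% of all sums called, and no window, with 3.08%. The 5′ cluster passed without Ring1B-/- replicate 1 (adjusted p = 0.002) or either Eed-/- library (adjusted p = 0.029), which leaves its values as they are and alters the shared spread, and the 3′ flank passed without Ring1B-/- replicate 1 (adjusted p = 0.041). The desert beyond Mtx2 alone had 0.142 and 0.109 in UD and 0.274 and 0.216 in D3 cells (0.87, adjusted p = 0.114). Of the 134 anchored pairs in the 3′ flank, 48 were higher in both D3 than in both UD libraries, against 14.1% of all pairs of the locus. Of the 78 in the 5′ flank, 6 were. In the cluster, 14 of 18 pairs on the 5′ side and 11 of 25 on the 3′ side were lower in both D3 libraries, against 9.15% of all pairs.

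**Figure D5:**
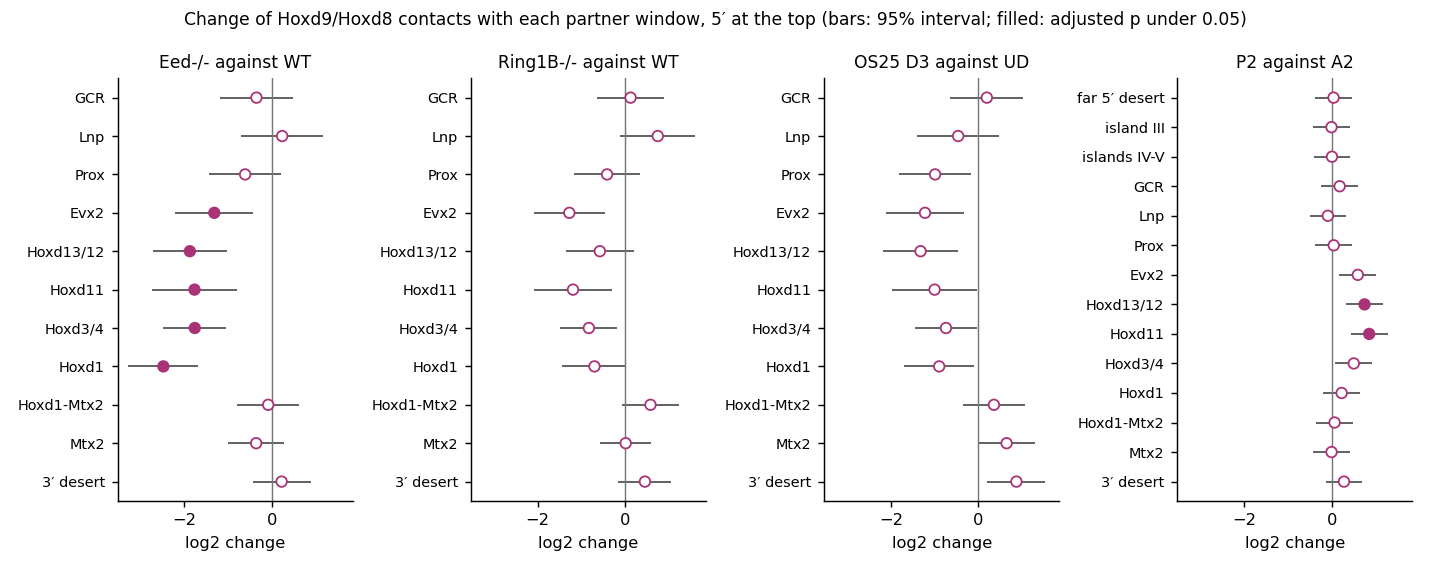
Log2 change, with its 95% interval, of the contact frequency between the Hoxd9 and Hoxd8 fragments and each named region, from 5′ to 3′; filled points passed the test. In Eed-/- against wild-type cells all 5 cluster regions passed, and in P2 against A2 cells Hoxd11 and the region of Hoxd13 and Hoxd12 did.

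In limb cells the posterior line had more contacts of Hoxd9 and Hoxd8 with the 5′ cluster. The 5′ cluster had 0.355 and 0.246 reads per 1000 per pair in A2 and 0.432 and 0.587 in P2, a log2 change of 0.73 (limma adjusted p = 0.0113; 3.12% of all sums called higher). Its SE of 0.19 was the same for every sum of the anchor, so the spread of its own libraries carried no weight of its own. Contacts with Hoxd11 had 0.498 and 0.369 in A2 and 0.648 and 0.969 in P2 (0.86, adjusted p = 0.00803). Contacts with Hoxd13 and Hoxd12, the genes at the 5′ end of the cluster that are active in the digits, had 0.314 and 0.258 against 0.402 and 0.604 (0.75, adjusted p = 0.0262). These were the 2 anchored windows called, and 1.92% of all window pairs were. Evx2 had 0.313 and 0.174 against 0.347 and 0.384 (0.60, adjusted p = 0.139). Without P2 replicate 2 the changes were 0.52 for the 5′ cluster, 0.57 for Hoxd11 and 0.47 for Hoxd13 and Hoxd12, and none was called (adjusted p = 0.50, 1.0 and 1.0). Without A2 replicate 2 they were 0.48, 0.65 and 0.62 (adjusted p = 0.99 for each), and without A2 replicate 1 the call for Hoxd13 and Hoxd12 was lost too (0.88, adjusted p = 0.058). P2 replicate 2 was the deepest library, at 2096681 reads, and anchored pairs took 9.62% of its reads at 10 kb or more against 6.44 to 6.62% in the other limb libraries. Its part in the difference was not tested further. The calls were also lost when libraries were scaled to their pairs at least 10 kb apart, when primers were scaled and when medians replaced means. The 3′ cluster had 0.372 and 0.303 in A2 and 0.358 and 0.609 in P2, which overlapped. Contacts with the digit enhancer regions of the 5′ desert were low in both lines: the region of islands IV and V had 0.039 and 0.035 in A2 and 0.033 and 0.041 in P2, and island III 0.049 and 0.032 against 0.034 and 0.046. These values overlapped. The desert beyond Mtx2 had 0.207 and 0.163 in A2 and 0.220 and 0.236 in P2. These regions were not matched for distance. Median distances were 354 kb for islands IV and V, 534 kb for island III and 287 kb for that desert. The 5′ desert beyond island III, at a median of 710 kb, had group means of 0.0594 in A2 and 0.0620 in P2. Among single pairs, 10 of 18 on the 5′ cluster side and 7 of 23 on the 3′ cluster side were higher in both P2 libraries, against 15.1% of all pairs.

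No single anchored pair passed the adjusted test in any of the 7 comparisons, and none of the locus did (0% called). Of the anchored pairs, 241 of 255 in ES cells and 367 of 395 in limb cells had a mean above 0.02 and were tested. At an unadjusted p under 0.05 in limma, 35 of 241 passed for Eed-/- against wild type, beside 9.41% of all pairs. For Ring1B-/- against wild type 18 did (7% of all pairs), for Ring1BGWT and Ring1BG53 against Ring1B-/- 19 (6.8%) and 14 (4.74%), for D3 against UD 10 (3.85%) and for UD against wild type 9 (5.83%). In P2 against A2, 21 of 367 did (3.25%). In Eed-/- cells 12 of 18 pairs of the 5′ cluster and 19 of 25 of the 3′ cluster lay below both wild-type libraries, against 10.1% of all pairs. In Ring1B-/- cells 7 of 18 and 7 of 25 did, against 5.36%. In Ring1BGWT cells 6 of 18 and 5 of 25 lay above all Ring1B-/- libraries, against 6.85%, and 2 of 18 and 5 of 25 lay below all of them, against 8.14%.

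In most ES groups the most frequent single contacts of Hoxd9 and Hoxd8 joined them to Hoxd11, to Evx2 and to a fragment that ends between Hoxd3 and Hoxd1. The pair of mHoxD_78, the end of Hoxd9, with mHoxD_75, which holds Hoxd11, spans 17.6 kb. It had 2.56 and 4.27 reads per 1000 in UD, 1.24 and 1.44 in D3, 3.48 and 3.56 in wild-type, 1.25 and 1.23 in Eed-/-, and 4.21, 1.18 and 1.51 in Ring1B-/- cells. The Eed-/- and D3 libraries lay below their comparison groups, and the Ring1B-/- libraries were spread over the whole range. In limb cells the same pair had 0.992 and 0.797 in A2 and 1.47 and 2.61 in P2, without overlap.

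The pair of mHoxD_79, between the genes, with mHoxD_67, which carries Evx2, reaches over 49.6 kb and the whole 5′ cluster. It had 3.39 and 2.49 in UD, 2.46 and 1.41 in D3, 2.31 and 4.72 in wild-type, 0.933 and 0.694 in Eed-/-, 1.42, 1.07 and 0.494 in Ring1B-/-, 3.99 and 3.87 in Ring1BGWT and 4.81 in Ring1BG53 cells. The mutant libraries were all below the wild type, and the libraries with returned Ring1B were all above the Ring1B-/- ones. On the other side, mHoxD_79 with mHoxD_92, which ends between Hoxd3 and Hoxd1, at 48.4 kb had 3.62 and 4.37 in wild-type and 0.264 and 2.01 in Eed-/- cells. The Eed-/- libraries were far apart here but did not reach the wild type. It was 1.64 and 2.04 in UD and 2.63 and 1.10 in D3 cells, which overlapped. The most frequent limb pair, mHoxD_79 with mHoxD_82 at 10.1 kb, had 1.45 and 1.74 in A2 and 1.80 and 3.37 in P2.

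The other pairs among the 5 most frequent of a group reached Hoxd11, Hoxd13, Evx2 and the 3′ genes. The pair of mHoxD_75 with mHoxD_80 at 23.1 kb had 3.84 and 4.35 in wild-type, 0.706 and 0.565 in Eed-/-, 1.95 and 3.97 in UD and 2.22 and 1.23 in D3 cells. For mHoxD_70, which holds Hoxd13, the pair with mHoxD_80 at 34.8 kb had 1.64 and 3.35 in UD and 0.707 and 0.909 in D3 cells, without overlap. It reached 4.56 and 2.90 in Ring1BGWT cells, above the Ring1B-/- libraries at 1.25, 0.177 and 0.277. The pair of mHoxD_70 with mHoxD_78 at 29.3 kb had 2.16 and 0.868 in wild-type and 0.358 and 0.952 in Eed-/- cells, which overlapped.

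Towards Evx2, mHoxD_67 with mHoxD_81 at 55.8 kb had 1.90 and 3.99 in UD and 0.939 and 0.572 in D3 cells, again without overlap. On the 3′ side, mHoxD_79 with mHoxD_84 at 13.5 kb had 1.92 and 3.94 in wild-type and 1.75 and 0.258 in Eed-/- cells. The pair of mHoxD_81 with mHoxD_92 at 42.2 kb had 2.12 and 1.495 in wild-type and 1.15 and 1.00 in Eed-/- cells. Both 3′ pairs were thus lower in each Eed-/- library than in either wild-type one. The most frequent pair of the Ring1BG53 library joined mHoxD_81 to mHoxD_88, which holds the 3′ end of Hoxd4, at 22.9 kb, with 4.86 against 1.04, 0.814 and 0.370 in Ring1B-/- cells. In limb cells mHoxD_79 with mHoxD_84 had 1.10 and 0.949 in A2 and 1.04 and 2.09 in P2, which overlapped. Pairs mHoxD_70 with mHoxD_78 (0.541 and 0.622 against 0.957 and 1.44), mHoxD_75 with mHoxD_80 (0.661 and 0.451 against 0.812 and 0.884) and mHoxD_78 with mHoxD_83 at 14.7 kb (0.367 and 0.280 against 0.589 and 1.76) were higher in both P2 than in both A2 libraries. These pairs were chosen for their frequency in these libraries, and none passed the adjusted test.

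One contact far into the 3′ desert stood above others at its distance. The pair of mHoxD_79 with mHoxD_179, over 349.8 kb, had 0.144 to 1.63 reads per 1000 in the 14 ES libraries, with a median of 0.414. The mean over the 296 pairs of the locus at like distance was 0.0788 in the median library, and the pair exceeded its own library's mean in 14 of 14. The mean over the 39 contacts of mHoxD_179 with other fragments at 200 kb and more, which share its primer, was 0.128 in the median library, and was also exceeded in 14 of 14. The margin was small in Ring1B-/- replicate 1, at 0.144 against 0.141. In limb cells the pair had 0.341 to 0.649, against such medians of 0.0651 over 590 pairs at like distance and 0.0626 over 75 contacts of the same primer, and exceeded both in 4 of 4 libraries. The neighbouring anchor fragment mHoxD_81 joined to mHoxD_179 had 0 to 0.9 in ES libraries (median 0.262) and 0.376 to 0.500 in limb libraries. It exceeded the mean at like distance in 13 of 14 ES libraries. The mean of the mHoxD_179 primer was exceeded in only 10 of 14. In limb cells both were exceeded in 4 of 4. In UD cells the first pair had 0.475 and 0.397, and in D3 cells 0.961 and 1.63, without overlap. In the wild type it had 0.216 and 0.246 and in Eed-/- cells 0.432 and 1.39. For the other primer, mHoxD_79, the mean over its 34 pairs with the 3′ flank, nearer ones included, differed between groups. It was 0.174 in UD, 0.326 in D3, 0.181 in wild-type and 0.157 in Eed-/- cells. In Ring1B-/- libraries this mean ran from 0.15 to 0.259, and the pair itself had 0.144, 0.296 and 0.357. The pair was thus not clearly above the usual 3′ level of mHoxD_79 in every group. The efficiency of each primer is part of these values and was not measured. This pair was singled out after its values were seen, so no test is given.

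The 4 anchor fragments were compared to see whether 1 of them carried the averages. In Eed-/- against wild-type cells, contacts with the 3′ cluster were lower for all 4, without overlap between libraries, by 2.94 log2 units for mHoxD_78, 1.99 for mHoxD_79, 2.79 for mHoxD_80 and 0.95 for mHoxD_81. With the 5′ cluster the changes were -1.64, -0.94, -2.45 and -1.09, and the libraries overlapped for mHoxD_79. In D3 against UD cells, contacts with the 5′ cluster were lower for all 4, by 1.33, 0.81, 1.27 and 1.73. Contacts with the 3′ flank were higher for mHoxD_79, mHoxD_80 and mHoxD_81 (0.91, 1.15 and 0.94), and the libraries overlapped for mHoxD_78 at the end of Hoxd9 (0.18). In P2 against A2 cells, contacts with the 5′ cluster were higher for the forward fragments mHoxD_78 (1.15) and mHoxD_80 (0.72), and overlapped for the reverse fragments mHoxD_79 (0.28) and mHoxD_81 (0.38). The rise of mHoxD_78 was not particular to that side. Its group means also rose, without overlap, with the 3′ cluster (0.170 to 0.394), the 5′ flank (0.0373 to 0.0575) and the 3′ flank (0.133 to 0.213). For mHoxD_80 the libraries overlapped on those sides. Forward and reverse fragments were read with different partners.

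The windows whose ratio of 5′ over 3′ contacts was most like that of the anchor over the 14 ES libraries were Hoxd4 and Hoxd3 (Pearson r = 0.62) and Hoxd1 (r = 0.57), all distance classes included. For Hoxd11, the nearest window on the other side, r was -0.02, and for Evx2 it was -0.57. These are descriptions, since the windows share libraries, depth and the contacts between them.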

How the data were processed

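The study's authors joined EcoRI fragments in crosslinked mouse cells, amplified the junctions with 5C primers and sequenced them on an Ion Torrent PGM. The deposited matrices hold a signal in reads per 1000 reads of a run for each forward and reverse fragment pair, on mm9 per the labels, so primer efficiencies remain in the values. Values were whole multiples of a step per library, which gave the read totals. Groups came from titles and source names. The study's figure legends speak of biological replicates, but whether these were separate cultures is not given. P-values therefore measure only the spread between libraries.

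Values were tested as log2(value + 0.02) with limma 3.58.1 (R 4.3.3) and eBayes, two-sided, ES and limb designs apart, all groups of a design in one fit. Pairs under 10 kb were left out, and single pairs also at a mean of 0.02 or less. Ratios of 5′ over 3′ partners were taken in distance classes with edges at 10, 20, 40, 80, 160 and 300 kb holding at least 2 pairs on both sides, with no pseudocount, and averaged. P-values were adjusted by Benjamini-Hochberg within each comparison over the whole table, called at 0.05. In the limb design each feature has 2 residual degrees of freedom, and the rest of the spread is borrowed from other features. For limb sums the spread was wholly shared, with 128 degrees of freedom. So it was for ratios below 80 kb and, in ES cells, for window differences at 80 kb and more. Calls there rest on the pooled spread and not on that of the feature itself. Ring1BG53, a single library, is assumed to vary like the other groups. Code was tested on simulated data.

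All partner windows were tested, but values of several are not given above. Among these are the Prox region between Lnp and Evx2, and the interval from Hoxd1 to Mtx2. The 5 most frequent pairs of each group and the windows most alike in ratio were named. Members and lists were chosen with earlier results of these data known. Alternatives were the groups compared alone, pseudocounts of 0.005 and 0.1, filters, a minimum of 20 kb, other distance classes, other scalings, medians, leaving out each library and, chosen after seeing the data, splitting ratios at 80 kb. Intervals and the floor of 3 reads cover counting error only. Gene positions are from the GENCODE annotation of the same assembly.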

Additional observations from a re-analysis of the deposited data

How the results depend on the processing

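No paired analysis was possible because the labels give the groups no shared replicate numbers. No single pair was called with all groups in one fit, and most groups have 2 libraries. Causes of the changes below were not tested. Leaving out a library outside the comparison changed 22 of 643 values and reversed 0.

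Numbers of calls moved as follows. In D3 against UD, windows (0) became 2 with only the groups compared and 1 with libraries scaled or medians (0 to 1 without a library), and sums (0) became 1 with only the groups compared, a pseudocount of 0.005 or a minimum of 20 kb and 2 with libraries scaled (0 to 1 without a library of either group, but 3 without Ring1B-/- replicate 1 and 1 without either Eed-/- library). In Eed-/- against wild type, pairs (0) became 12 with only the groups compared and 2 with no filter, windows (5) 0 and sums (3) 1 with primers scaled (2 to 5 and 1 to 3 without a library). In Ring1B-/- against wild type, sums (0) became 1 with only the groups compared (windows 0 to 3, sums 0 to 2 without a library). In Ring1BGWT against Ring1B-/-, pairs (0) became 1 with no filter and sums (1) 0 with a pseudocount of 0.1, libraries scaled or medians (windows 0 to 3, sums 0 to 2 without a library). In Ring1BG53 against Ring1B-/-, pairs (0) became 1 with no filter (sums 0 to 2 without a library). In UD against wild type, pairs (0) became 4 with only the groups compared. In P2 against A2, windows (2) became 0 and sums (1) 0 with libraries or primers scaled or medians, windows 0 with a pseudocount of 0.005 and 1 with a minimum of 20 kb, and sums 2 with a pseudocount of 0.1 (windows 0 to 3, sums 0 to 2 without a library).

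The ratio over all classes for D3 minus UD lost its call at -0.82 (only the groups compared), -0.37 (primers scaled), -0.21 (under 80 kb) and -0.47 (without mHoxD_81), and ran from -0.97 to -0.67 without a library. Eed-/- minus wild type (-0.06) became 0.26 (other classes), 0.57 (under 80 kb), 0.08 (without mHoxD_80) and 0.00 (without mHoxD_81), and -0.17 to 0.05 without a library. Ring1BGWT minus Ring1B-/- lost its call at 0.47 (other classes), 0.55 (primers scaled) and 0.68 (at least 80 kb; 0.51 to 1.05 without a library). P2 minus A2 (0.10) became -0.06 (other classes) and -0.16 (at least 80 kb). Under 80 kb, A2 was -0.07, Ring1B-/- -0.08, P2 0.29 and D3 0.73. Ring1B-/- was -0.42 with primers scaled. D3 lost its call at -0.60 (only the groups compared), -0.30 (primers scaled) and -0.39 (without mHoxD_81). Without a library, A2 was -0.70 to -0.65 and D3 -0.75 to -0.45.

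At 80 kb and more, primer scaling gave -0.40 in wild type (-1.20 to -1.01 without a library), -0.80 for D3 minus UD and -1.02, called, for Eed-/- minus wild type, which was also called at -0.97 without mHoxD_81 (-1.27 to -0.11 without a library). UD was called at -0.58 with the mean of log2 values and at -0.74 without mHoxD_81.

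Called differences from the 5 cluster windows, over all classes, became with other classes 0 in UD and Ring1BG53, 1 in wild type, Eed-/- and Ring1BGWT, 2 in D3 and 3 in P2. With primers scaled they became 0 in UD, wild type, Ring1B-/-, Ring1BGWT and Ring1BG53, 1 in Eed-/-, 2 in D3 and 3 in P2. At 80 kb and more they became 0 in UD, wild type, Ring1BGWT and Ring1BG53, 1 in Ring1B-/-, 3 in D3 and 4 in Eed-/- and P2, and under 80 kb 1 in A2, 2 in Eed-/- and P2 and 3 in D3. With only the groups compared they became 0 in UD and P2, with the mean of log2 values 3 in Ring1BGWT and 0 in P2, and with a minimum of 20 kb 1 in A2. Without mHoxD_81 A2 had 1, and P2 had 3, 0 and 3 without mHoxD_78, mHoxD_79 and mHoxD_80. Without a library UD had 2 to 3, Ring1B-/- 1 to 2, Ring1BGWT 2, A2 0 and P2 1 to 3 (0 without either A2 library). At 80 kb and more, D3 had 1 to 3 and Eed-/- 2 to 4 without a library, Eed-/- 0 with only the groups compared and 1 with primers scaled, and A2 5 with only the groups compared or without either P2 library.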
